A study of Mus musculus with 6 samples.

Results

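A panel of 41 genes of the p53 pathway, DNA repair and apoptosis was examined in the colon epithelium of mice treated with a protocol that induces colitis-associated tumours, as RNA-seq levels in FPKM (fragments per kilobase of transcript and M mapped fragments, a unit scaled for transcript length and for depth). The members were taken from a list of gene names, which was chosen with earlier results of these data known. All 41 were found among the 52550 genes listed. They fell into 8 subgroups by role, namely 4 p53 regulators, 7 p53 targets of cell cycle arrest, 12 of death pathways, 5 of metabolism and stress, 3 of DNA damage repair, 3 checkpoint kinases, 3 genes of alkylation and mismatch repair, and 4 apoptosis regulators.

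The comparison was between 3 samples of *Zfp90*fl/fl mice and 3 samples of *Zfp90*ΔIEC mice, which lack the zinc finger protein gene *Zfp90* in the intestinal epithelium. By the labels both were male C57BL/6 mice of 6 to 8 weeks (the study's methods name C57BL/6 J for the stem cells and the Cre line), and both carried *Zfp90* alleles with loxP sites around exon 4 and the 3′ untranslated region, and the *Zfp90*ΔIEC mice had in addition a Cre recombinase driven by the Villin promoter, which is active in gut epithelium. All 6 received 1 intraperitoneal injection of 10 mg/kg azoxymethane (AOM), followed after 5 days by 3 cycles of 2% dextran sulfate sodium (DSS) for 7 days and plain water for 14 days, and were killed on day 80. Dose, timing and age are those of the labels, and the study's methods give another DSS concentration and another age. No untreated mice were part of the comparison, and the genotypes were housed apart after weaning, which means that effects of cage and of genotype cannot be told apart. The labels number the samples 1 to 3 within a genotype but do not describe separate litters or days, and the p-values measure the spread between these samples.

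AOM is a methylating carcinogen, and DSS injures the colon lining and causes repeated inflammation. Methylated guanine is repaired directly by MGMT, methylated adenine is removed by the glycosylase MPG, and the mispairs that remain are recognised by mismatch repair, which includes MSH6. DNA breaks and stalled replication activate the kinases ATM, CHEK1 and CHEK2, which stabilise the transcription factor p53. p53 in turn activates genes that halt the cell cycle, repair DNA or trigger mitochondrial apoptosis, and it activates its own inhibitor *Mdm2*, which closes a feedback loop. Proteins of the BCL-2 family decide whether mitochondria release the factors that start the caspase cascade.

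The summed FPKM was between 429999 and 446674 in the 6 samples, and the smallest steps between low values gave a rough estimate of 26.1 to 28.5 M fragments for each. *Zfp90* was measured at 0.630, 0.490 and 0.569 FPKM in *Zfp90*fl/fl samples, whereas the *Zfp90*ΔIEC samples held 0.0846, 0.195 and 0.166 FPKM. The 10 epithelial markers were all measured above the filter and summed to 7193 to 8141 FPKM in *Zfp90*fl/fl and 6967 to 7718 FPKM in *Zfp90*ΔIEC samples. Markers of each leukocyte type summed to far less than the epithelial markers. Their sums reached lower values in *Zfp90*ΔIEC samples, and those of neutrophil and T cell markers overlapped between genotypes. All 5 general leukocyte markers were lower in every *Zfp90*ΔIEC sample, with sums of 5.39 to 6.60 FPKM against 2.63 to 3.78 FPKM. Of the neutrophil markers, *S100a8* and *S100a9* lay below the filter and were listed at 0 in the 3 *Zfp90*ΔIEC samples. Sums for macrophage markers were 7.45 to 10.3 FPKM against 3.25 to 4.61 FPKM (5 of 8 lower without overlap). Those for mast cell markers were 17.0 to 25.4 FPKM against 4.99 to 9.39 FPKM (3 of 6). Of the 3 tested, 1 had a log2 difference above 0, of 0.10. The other 2 were lower at an adjusted p under 0.05 by limma, with log2 differences of -2.28 and -2.765. Sums for neutrophil markers were 25.2 to 47.1 FPKM against 21.9 to 33.0 FPKM (3 of 7). Only 1 neutrophil marker passed the filter, with a log2 difference of -0.17 (adjusted p = 0.802, limma). T cell markers summed to 2.73 to 4.70 FPKM against 1.83 to 3.21 FPKM (1 of 7). B and plasma cell markers summed to 0.673 to 0.989 FPKM against 0.123 to 0.263 FPKM (2 of 6). Of all 52550 genes listed, 2469 were lower without overlap, while 24745 were at 0 in all 6 samples and could not be counted so. Among the 11564 genes above the filter, 12.6% were lower without overlap. Sums for fibroblast and muscle markers were 0.314 to 0.538 FPKM against 0.191 to 0.759 FPKM, and those for endothelial markers 0.380 to 0.521 FPKM against 0.595 to 0.622 FPKM. In these bulk samples fewer cells of a type and less RNA per cell cannot be told apart, and the part of these cells in the results below was not tested.

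p53 binds DNA as a tetramer at a consensus of a pair of 10-letter elements, each built around a core with C at its start and G at its end. RefSeq windows of GRCm38.p6, reaching from 250 bases before to 50 bases after an annotated start, were found for 33 of the 41 members, and 8 of the 33 (24.2%) held a match on either strand, with at most 3 mismatches, a spacer of at most 1 base and the C and G of each core kept, against 884 of 27025 genes (3.27%). The match was a search for letters and not a measurement of binding, and its settings were chosen after a look at the matches. The 8 sequences are shown because they are the elements of this panel that the search could place next to a start site, with capitals marking the 4-letter core of each element.
*Cdkn1a* (chr17:29090928-29090947, plus strand): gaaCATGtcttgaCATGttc
*Ccng1* (chr11:40755462-40755481, minus strand): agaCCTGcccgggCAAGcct
*Bax* (chr7:45467079-45467099, minus strand): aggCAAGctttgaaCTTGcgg
*Bbc3* (chr7:16309486-16309505, plus strand): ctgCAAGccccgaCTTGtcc
*Trp53* (chr11:69580284-69580303, plus strand): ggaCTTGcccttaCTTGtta
*Aen* (chr7:78895937-78895956, plus strand): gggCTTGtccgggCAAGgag
*Sesn1* (chr10:41887266-41887285, plus strand): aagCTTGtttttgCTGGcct
*Tigar* (chr6:127109746-127109765, minus strand): ggtCTAGctctggCAAGact

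The matches in *Cdkn1a* and *Ccng1* had 1 mismatch, that in *Bax* had 2 and a spacer of 1 base, and the other 5 had 3. Counted from the annotated start of the window, their first bases lay 51 bases before it in *Cdkn1a*, 195 in *Ccng1*, 201 in *Bax* and 97 in *Bbc3*. That of *Aen* lay 10 bases after it. In *Bbc3* and *Sesn1* this was not the outermost start, and the matches lay inside the span of the gene. *Mdm2*, *Gadd45a* and *Gdf15*, 3 of the members with an unadjusted p under 0.05 below, had a window and no match in it, which says only that these letters are absent from that window.

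None of the 37 members above the filter (at least 1 FPKM in at least 3 samples) passed an adjusted p of 0.05 by limma on log2(FPKM + 1) with Benjamini-Hochberg adjustment over all 11564 genes tested, where 23 genes (0.199%) passed. Before adjustment 7 members (18.9%) had a p under 0.05, against 14.6% of all genes. Of these, 6 were higher in *Zfp90*ΔIEC samples (6.56% of all genes were) and 1 was lower (8.09% of all genes were). The 3 values of a genotype lay clear of the 3 of the other in 6 members (16.2%), against 21.3% of all genes. *Mdm2*, *Gadd45a*, *Bbc3*, *Gdf15* and *Chek1* were the 5 without overlap and higher, where 8.73% of all genes lay, and *Pmaip1* was the member without overlap and lower, where 12.6% lay. *Pmaip1* overlapped under median ratio scaling, where 5 members had no overlap, as under quantile normalization. Over both directions these shares stood near those of all genes, while the members with a p under 0.05 were mostly higher. Leaving out single samples moved the count of 7 to between 4 and 8, with 4 calls without *Zfp90*fl/fl replicate 2. In that fit 10.8% of the members had a p under 0.05 against 11.2% of all genes, and without *Zfp90*fl/fl replicate 1 the shares were 21.6% and 11.3%. The count of 6 without overlap went to 14 without *Zfp90*fl/fl replicate 1 and to 13 without *Zfp90*ΔIEC replicate 1, where 30.7% and 36.2% of all genes had no overlap.

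The direction of the differences was mixed. The log2 difference was above 0 in 20 of the 37 members (4951 of the 11564 genes tested were). Its median was 0.03 against -0.02 over all genes tested, and it ran from -0.20 in *Ddb2* and *Pmaip1* to 0.88 in *Gdf15*. In 33 of the 37 members it was smaller than 0.25 in either direction. The 95% confidence interval lay within 1 of 0 on the log2 scale in 36 members, and within 0.5 of 0 in 30. Pooled, the 27 p53 targets of the 4 target subgroups held 25 tested genes, of which 5 (20.0%) had an unadjusted p under 0.05 and 11 had a log2 difference above 0, with a median of -0.01.

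**Figure D1:**
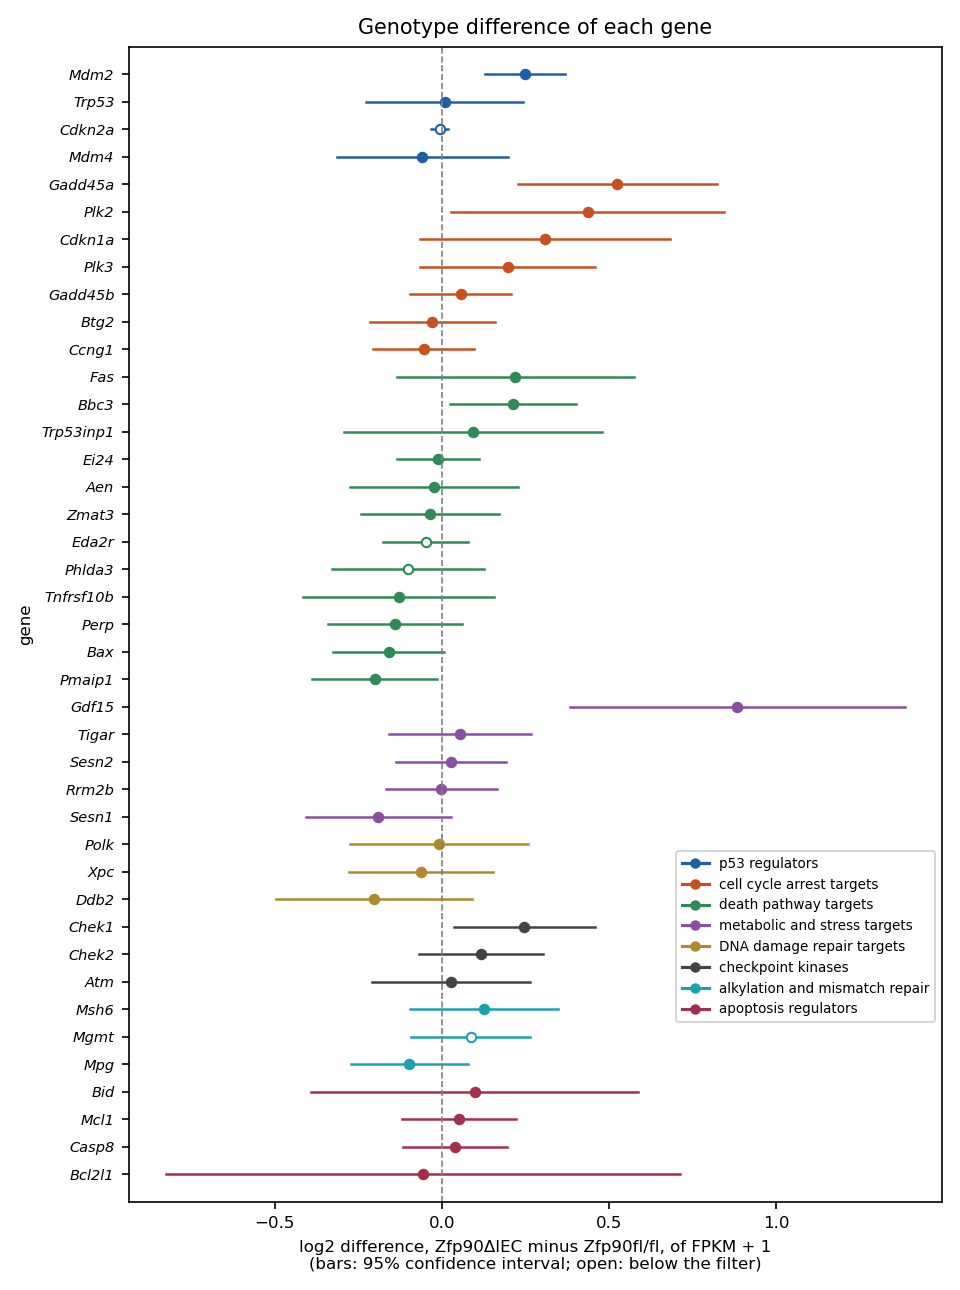
Log2 difference of FPKM + 1, *Zfp90*ΔIEC minus *Zfp90*fl/fl, for each of the 41 genes, ordered by subgroup (colour). Points are estimates by limma over 3 samples of each genotype, bars are 95% confidence intervals, and open points are the 4 genes below the filter, taken from the fit without it. The interval lies clear of 0 in 7 genes, and *Gdf15* has the highest estimate at 0.88.

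The members spanned a wide range of levels. Their mean over the 6 samples was at least 10 FPKM in 14 members, between 1 and 10 FPKM in 23, and under 1 FPKM in 4. *Btg2*, an antiproliferative target of p53, was the highest at 264 ± 13.2 FPKM (SD, n = 3) in *Zfp90*fl/fl and 259 ± 22.7 FPKM in *Zfp90*ΔIEC samples. The next by level were *Mcl1*, *Perp* and *Cdkn1a*, and since *Mcl1* ran from 114 to 136 FPKM and *Perp* from 99.5 to 129 FPKM, this pair did not differ beyond its spread over samples. The 4 genes under 1 FPKM were *Mgmt*, *Phlda3*, *Eda2r* and *Cdkn2a*.

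**Figure D2:**
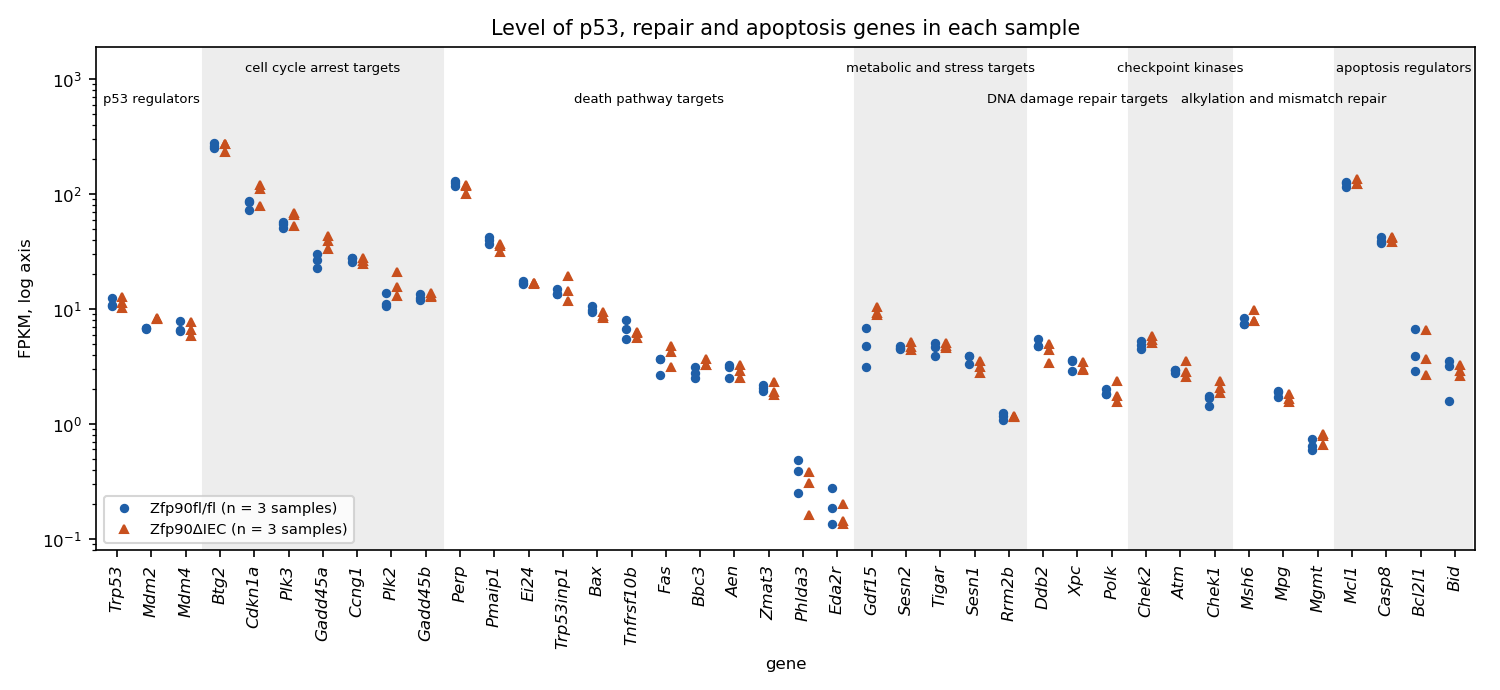
Level in FPKM (log axis) of 40 of the 41 genes in each of the 6 samples, circles for *Zfp90*fl/fl and triangles for *Zfp90*ΔIEC, ordered within each subgroup by mean level. *Cdkn2a*, listed at 0 in 5 of the 6 samples, is not drawn, and in most genes the symbols of the genotypes lie over each other.

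Among the p53 regulators, *Trp53* itself (chr11:69580359-69591873, GRCm38), which encodes p53, was at the same mean level in both genotypes. It was measured at 10.8, 12.6 and 10.7 FPKM in the *Zfp90*fl/fl samples (replicates 1 to 3, the order used throughout) against 10.1, 12.8 and 11.4 FPKM in the *Zfp90*ΔIEC samples, and the values overlapped. The log2 difference was 0.01 (95% interval -0.23 to 0.24, adjusted p = 0.977, limma). *Mdm2* (chr10:117688875-117710758), the ubiquitin ligase that degrades p53 and is itself a p53 target, was the member with the lowest p. It was measured at 6.68, 6.81 and 6.82 FPKM in *Zfp90*fl/fl samples and at 8.17, 8.16 and 8.34 FPKM in *Zfp90*ΔIEC samples. Every *Zfp90*ΔIEC value lay above every *Zfp90*fl/fl value, and the spread within a genotype was small. The means were 6.77 ± 0.0790 and 8.22 ± 0.102 FPKM, a level 21.4% higher in *Zfp90*ΔIEC samples, with a log2 difference of 0.25 (SE 0.0506, adjusted p = 0.110, limma). *Mdm4*, the MDM2 relative that blocks p53 activity, was at 7.00 ± 0.807 and 6.68 ± 0.892 FPKM. *Cdkn2a*, whose locus encodes the MDM2 inhibitor ARF and the cell cycle inhibitor INK4A, was listed at 0.0154 FPKM in *Zfp90*fl/fl replicate 2 and at 0 in the other 5 samples.

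**Figure D3:**
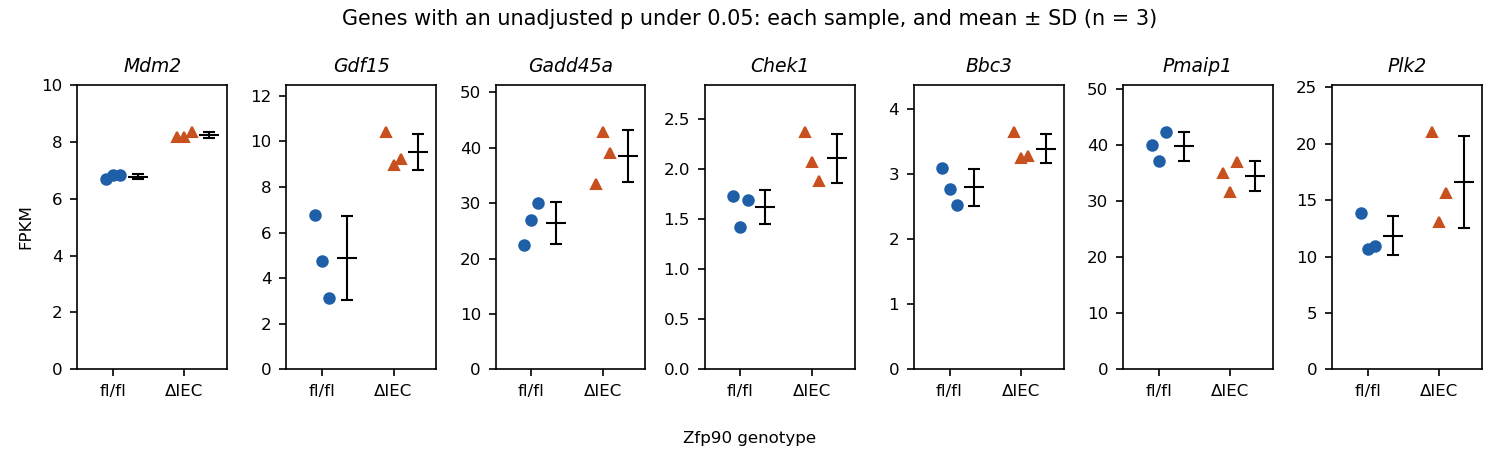
FPKM of the 7 genes with an unadjusted p under 0.05 in each sample (circles, *Zfp90*fl/fl; triangles, *Zfp90*ΔIEC), with the mean ± SD (n = 3) beside the points and each axis starting at 0. The genotypes do not overlap in 6 genes, of which *Pmaip1* is lower in *Zfp90*ΔIEC, and they overlap in *Plk2*.

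The 7 targets of cell cycle arrest had the highest median difference of the 4 target subgroups, a log2 difference of 0.20, with 5 of 7 above 0 (4951 of the 11564 genes tested were) and 2 of 7 at an unadjusted p under 0.05 (14.6% of all genes were). *Cdkn1a* (chr17:29090976-29100727), which encodes the cyclin-dependent kinase inhibitor p21 and carries a match with 1 mismatch shown above, was measured at 73.1, 86.9 and 85.1 FPKM in *Zfp90*fl/fl samples and at 78.7, 120 and 110 FPKM in *Zfp90*ΔIEC samples. The *Zfp90*ΔIEC replicates 2 and 3 were above every *Zfp90*fl/fl sample, whereas replicate 1 lay among them. The means of 81.7 ± 7.49 and 103 ± 21.5 FPKM gave a log2 difference of 0.31 (95% interval -0.06 to 0.68, adjusted p = 0.424, limma). It was 0.49 without *Zfp90*ΔIEC replicate 1 (adjusted p = 0.113) and 0.19 without *Zfp90*ΔIEC replicate 2 (adjusted p = 0.673). *Gadd45a* (chr6:67035096-67037457), a stress protein that slows entry into mitosis and takes part in repair, was measured at 22.5, 26.9 and 30.1 FPKM and at 33.6, 42.9 and 39.1 FPKM. All 3 *Zfp90*ΔIEC samples were the higher ones, and the mean of 38.5 ± 4.68 FPKM was 45.2% above that of 26.5 ± 3.79 FPKM. The log2 difference of *Gadd45a* was 0.52 (SE 0.126, adjusted p = 0.134, limma).

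*Plk2*, a polo-like kinase induced by stress, was measured at 13.9, 10.7 and 11.0 FPKM in *Zfp90*fl/fl samples and at 21.03, 13.1 and 15.6 FPKM in *Zfp90*ΔIEC samples. The genotypes overlapped, since *Zfp90*ΔIEC replicate 2 lay below *Zfp90*fl/fl replicate 1. The log2 difference was 0.44 (SE 0.173, adjusted p = 0.318, limma), and the p was over 0.05 in the fit without the filter and when any of *Zfp90*fl/fl replicates 2 and 3 or *Zfp90*ΔIEC replicates 1 and 3 was left out. Without *Zfp90*ΔIEC replicate 1 the difference was 0.26. Its relative *Plk3* was at 54.1 ± 3.43 and 62.5 ± 8.84 FPKM, with a log2 difference of 0.20 (adjusted p = 0.467). *Btg2*, the most abundant member, was measured at 254, 260 and 279 FPKM and at 275, 233 and 270 FPKM, and the values of the genotypes interleaved. *Ccng1*, the cyclin G1 gene with a close match to the p53 consensus, was at 27.2 ± 1.16 and 26.1 ± 1.42 FPKM, and *Gadd45b* was at 12.6 ± 0.787 and 13.1 ± 0.469 FPKM. The 7 arrest targets summed to 456 to 503 FPKM in *Zfp90*fl/fl and 501 to 541 FPKM in *Zfp90*ΔIEC samples, and these ranges overlapped.

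Among the 12 targets of death pathways, 3 of the 10 tested had a log2 difference above 0 (and *Ei24* besides them under both other scalings). Of all 11564 genes tested, 4951 did. The median of these targets was -0.03, close to the -0.02 over all genes. *Bax* (chr7:45461697-45466898), the effector that opens the outer mitochondrial membrane, was measured at 9.35, 10.6 and 9.82 FPKM in *Zfp90*fl/fl samples and at 9.38, 8.32 and 8.64 FPKM in *Zfp90*ΔIEC samples. *Zfp90*ΔIEC replicate 1 lay just above the lowest *Zfp90*fl/fl sample, so the genotypes overlapped by this value alone. The mean was 9.92 ± 0.628 FPKM against 8.78 ± 0.545 FPKM, with a log2 difference of -0.16 (95% interval -0.33 to 0.01, adjusted p = 0.363, limma). *Bbc3* (chr7:16308393-16318205), which encodes PUMA, a BH3-only activator of BAX, stood in the other direction. It was measured at 3.10, 2.76 and 2.52 FPKM and at 3.65, 3.24 and 3.28 FPKM, with each *Zfp90*ΔIEC sample above each *Zfp90*fl/fl sample. The log2 difference of *Bbc3* was 0.21 (SE 0.0797, adjusted p = 0.300, limma).

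*Pmaip1*, which encodes NOXA, a BH3-only protein that neutralises MCL1, was the member with an unadjusted p under 0.05 in the lower direction. It was measured at 39.9, 37.1 and 42.3 FPKM in *Zfp90*fl/fl samples and at 35.0, 31.5 and 36.9 FPKM in *Zfp90*ΔIEC samples. The gap between the genotypes was narrow, 37.1 against 36.9 FPKM, and the means of 39.8 ± 2.61 and 34.5 ± 2.73 FPKM gave a log2 difference of -0.20 (SE 0.0792, adjusted p = 0.315, limma). The p for *Bbc3* was over 0.05 without *Zfp90*fl/fl replicate 2 or 3 or *Zfp90*ΔIEC replicate 1 or 3, and that for *Pmaip1* under median ratio scaling and without *Zfp90*fl/fl replicate 1 or 3 or *Zfp90*ΔIEC replicate 1 or 2. *Perp*, a desmosome protein induced by p53 and the most abundant gene of the subgroup, was measured at 117, 129 and 125 FPKM and at 99.5, 120 and 117 FPKM. *Zfp90*ΔIEC replicate 1 was the lowest of the 6, the other 5 overlapped, and the log2 difference was -0.14 (95% interval -0.34 to 0.06, adjusted p = 0.496), or -0.06 without that replicate.

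The death receptor genes *Fas* and *Tnfrsf10b* had differences of opposite sign, with *Fas* at 3.33 ± 0.581 and 4.05 ± 0.832 FPKM and *Tnfrsf10b* at 6.73 ± 1.25 and 6.01 ± 0.396 FPKM (adjusted p = 0.553 and 0.670, limma). *Trp53inp1*, which encodes a nuclear cofactor of p53, was at 13.9 ± 0.872 and 15.2 ± 3.94 FPKM, with *Zfp90*ΔIEC samples between 11.7 and 19.5 FPKM. Log2 differences between -0.05 and -0.01 were found for *Ei24* (16.9 ± 0.495 and 16.7 ± 0.278 FPKM), the exonuclease gene *Aen* (2.96 ± 0.420 and 2.89 ± 0.357 FPKM), the RNA-binding protein gene *Zmat3* (2.06 ± 0.131 and 1.99 ± 0.278 FPKM) and, under the filter, the receptor gene *Eda2r* (0.200 ± 0.0731 and 0.159 ± 0.0356 FPKM), and that of *Ei24* was above 0 under quantile normalization and median ratio scaling. *Phlda3*, an inhibitor of AKT signalling, was also under the filter at 0.375 ± 0.120 and 0.281 ± 0.111 FPKM. The 12 death targets summed to 215 to 226 FPKM in *Zfp90*fl/fl and 200 to 213 FPKM in *Zfp90*ΔIEC samples, a sum made up mostly of *Perp* and *Pmaip1*.

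Among the 5 metabolic and stress targets, *Gdf15* (chr8:70629393-70632456), a secreted stress cytokine of the TGF-beta superfamily, had the largest difference of all members. It was measured at 6.78, 4.75 and 3.13 FPKM in *Zfp90*fl/fl samples and at 10.4, 8.94 and 9.21 FPKM in *Zfp90*ΔIEC samples. All *Zfp90*ΔIEC samples were the higher ones, and the *Zfp90*fl/fl samples differed among themselves more than the *Zfp90*ΔIEC samples did. The mean was 4.89 ± 1.83 FPKM against 9.52 ± 0.780 FPKM, a ratio of 1.95, and the log2 difference was 0.88 (SE 0.212, 95% interval 0.38 to 1.38, adjusted p = 0.134, limma). *Mdm2*, *Gadd45a* and *Gdf15* were the 3 members whose unadjusted p stayed under 0.05 whichever of the 6 samples was left out. The share of all genes that stayed so in all 6 fits was not counted, and these fits share most of their samples. In the single fits 11.2% to 15.3% of all genes had such a p.

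The other 4 stress targets had log2 differences between -0.19 and 0.05. *Sesn1*, a sestrin that restrains mTORC1 signalling, was at 3.73 ± 0.343 and 3.14 ± 0.374 FPKM, with a log2 difference of -0.19 (adjusted p = 0.398, limma), and its relative *Sesn2* was at 4.63 ± 0.153 and 4.74 ± 0.396 FPKM. *Tigar*, which lowers glycolytic flux, was at 4.58 ± 0.594 and 4.78 ± 0.244 FPKM. *Rrm2b*, the ribonucleotide reductase subunit that p53 induces to supply deoxynucleotides for repair, was at 1.16 ± 0.0749 and 1.16 ± 0.0190 FPKM, and the sign of its difference changed under both other scalings.

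The 3 p53 targets of DNA damage repair had log2 differences between -0.20 and -0.01, that of *Polk* turning above 0 under quantile normalization and median ratio scaling, and none had an unadjusted p under 0.05. *Ddb2*, the damage sensor of nucleotide excision repair, was measured at 5.53, 4.75 and 4.78 FPKM in *Zfp90*fl/fl samples and at 5.00, 4.43 and 3.37 FPKM in *Zfp90*ΔIEC samples. *Zfp90*ΔIEC replicate 1 lay among the *Zfp90*fl/fl samples and the other 2 lay below them, with a log2 difference of -0.20 (95% interval -0.50 to 0.09, adjusted p = 0.511, limma). It was -0.07 without *Zfp90*ΔIEC replicate 3 and -0.30 without *Zfp90*ΔIEC replicate 1. *Xpc*, the partner of DDB2 in damage recognition, was at 3.34 ± 0.382 and 3.15 ± 0.301 FPKM, and the translesion polymerase gene *Polk* was at 1.89 ± 0.118 and 1.88 ± 0.426 FPKM. *Ddb2* shares exon bases with *Acp2* on the other strand, as *Bid*, *Mpg* and *Msh6* do with *Bcl2l13*, *Nprl3* and *Fbxo11*, and whether strand was used in the quantification is not given in the sources used here.

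All 3 checkpoint kinases had higher means in *Zfp90*ΔIEC samples, with a median log2 difference of 0.12. *Chek1* (chr9:36708482-36727065), the kinase that answers stalled replication, was measured at 1.73, 1.42 and 1.69 FPKM in *Zfp90*fl/fl samples and at 2.37, 2.07 and 1.87 FPKM in *Zfp90*ΔIEC samples. The genotypes did not overlap, and the mean of 2.10 ± 0.248 FPKM was 30.1% above that of 1.62 ± 0.168 FPKM, with a log2 difference of 0.25 (SE 0.0890, adjusted p = 0.283, limma). The p was over 0.05 without *Zfp90*fl/fl replicate 2, *Zfp90*ΔIEC replicate 1 or *Zfp90*ΔIEC replicate 2. *Chek2*, which acts after double-strand breaks, was measured at 5.31, 4.91 and 4.47 FPKM and at 5.77, 5.01 and 5.38 FPKM, and its values overlapped (log2 difference 0.12, adjusted p = 0.546). *Atm*, the kinase upstream of CHEK2, was at 2.88 ± 0.112 and 2.98 ± 0.515 FPKM.

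*Chek1* is transcribed mainly in dividing cells, and markers of proliferation moved with genotype. Of 16 such genes 15 were higher at an unadjusted p under 0.05 (6.56% of all genes were), and 15 were higher without overlap (8.73% of all genes were). The median log2 difference was 0.34, and the list summed to 176 to 189 FPKM against 224 to 248 FPKM. *Mki67*, a nuclear protein of cycling cells, was at 22.3 ± 0.452 and 30.0 ± 0.772 FPKM, with a log2 difference of 0.41 (SE 0.0512, adjusted p = 0.0478, limma), the only gene of the wider lists past the threshold. *Mki67* lost this call when any sample other than *Zfp90*fl/fl replicate 3 was left out. The part of cell division in the differences of *Chek1*, *Mdm2*, *Gadd45a* and *Gdf15* was not tested.

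The 3 genes of alkylation and mismatch repair act on methylated bases and on the mispairs they cause. *Mgmt* (chr7:136894614-137130266), the methyltransferase that removes the methyl group from guanine, was below the filter in all 6 samples. It was measured at 0.743, 0.588 and 0.639 FPKM in *Zfp90*fl/fl samples and at 0.794, 0.663 and 0.819 FPKM in *Zfp90*ΔIEC samples. The genotypes overlapped, and the log2 difference in the fit without the filter was 0.09 (95% interval -0.09 to 0.26, adjusted p = 0.751, limma). *Msh6*, the part of the mismatch sensor that reads base mispairs, was measured at 8.30, 7.41 and 7.43 FPKM and at 9.81, 7.93 and 7.88 FPKM. *Zfp90*ΔIEC replicate 1 was the highest of the 6, the other 5 overlapped, and the log2 difference was 0.13 (95% interval -0.10 to 0.35, adjusted p = 0.584), or 0.03 without that replicate. *Mpg* was at 1.85 ± 0.113 and 1.67 ± 0.138 FPKM.

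The 4 apoptosis regulators held no gene with an unadjusted p under 0.05, and their precision differed. *Mcl1*, an antiapoptotic BCL-2 protein, was measured at 125, 114 and 128 FPKM in *Zfp90*fl/fl samples and at 136, 121 and 123 FPKM in *Zfp90*ΔIEC samples, with overlapping values and a log2 difference of 0.05 (adjusted p = 0.791, limma). *Casp8*, the initiator caspase of death receptors, was at 39.6 ± 2.16 and 40.7 ± 2.06 FPKM. *Bcl2l1*, which encodes BCL-XL, varied within both genotypes, at 6.69, 3.94 and 2.91 FPKM and at 2.68, 3.69 and 6.63 FPKM. Its 95% interval of -0.83 to 0.71 on the log2 scale was the widest of the panel, and no statement on its genotype difference can be made at this spread. *Bid*, the BH3-only protein that caspase-8 cleaves, was at 1.59 FPKM in *Zfp90*fl/fl replicate 3 and between 2.59 and 3.52 FPKM in the other 5 samples.

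The wider lists of the same pathways gave a frame for the panel. Of 54 other p53 targets 43 were tested, 2 were higher and 2 lower at an unadjusted p under 0.05 (9.3%, against 14.6% of all genes), and their median log2 difference was -0.02. The 2 with the lowest p were *Ckap2*, a spindle protein, at 4.51 ± 0.527 and 6.74 ± 0.617 FPKM, and *Klhl26* at 2.64 ± 0.277 and 1.82 ± 0.242 FPKM (adjusted p = 0.0927 and 0.146, limma). None of these 43 passed the adjusted threshold, and the same held for the 6 repair and apoptosis lists that follow.

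In double-strand break and crosslink repair 9 of 29 tested genes had an unadjusted p under 0.05 (14.6% of all genes did), near the shares of 30.8% in the BCL-2 family and 29.4% in nucleotide excision repair. Of the 9, 8 were higher in *Zfp90*ΔIEC samples, and 13 genes were higher without overlap and 1 lower (14 together, 48.3%, against 21.3% of all genes). Its median log2 difference was 0.12. *Brca1*, which directs repair to homologous recombination, was at 1.47 ± 0.123 and 2.14 ± 0.130 FPKM (log2 difference 0.35, adjusted p = 0.117, limma), and *Clspn*, the adaptor through which ATR activates CHEK1, was at 1.94 ± 0.290 and 2.80 ± 0.0676 FPKM (log2 difference 0.38, adjusted p = 0.127). Many genes of this list are expressed in S phase, and the proliferation markers moved in the same direction. Their part in the list was not tested.

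In nucleotide excision repair 3 of 17 tested genes were higher and 2 lower at an unadjusted p under 0.05 (29.4%, against 14.6% of all genes). Without overlap were 7 (41.2%, against 21.3% of all genes). The median was 0.00, and *Ercc3*, the TFIIH helicase, was at 14.9 ± 0.385 and 12.5 ± 0.891 FPKM (adjusted p = 0.177, limma). In other alkylation and base excision repair 1 of 20 was higher and 1 lower (10.0%), with a median of 0.05. These were *Neil3* (1.66 and 2.11 FPKM) and the uracil glycosylase gene *Smug1* (4.68 and 4.02 FPKM). In other mismatch repair 1 of 6 was higher (16.7%), *Pcna*, the replication clamp, at 38.5 ± 2.00 and 44.4 ± 3.06 FPKM (adjusted p = 0.275), with *Mlh3* next at 0.971 ± 0.512 and 1.25 ± 0.447 FPKM.

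Among other members of the BCL-2 family 13 of 19 genes were tested, and 2 were higher and 2 lower at an unadjusted p under 0.05 (30.8%, against 14.6% of all genes). The median log2 difference was -0.02. The BH3-only gene *Bik* was at 1.71 ± 0.130 and 2.35 ± 0.288 FPKM, and *Bnip3l*, a receptor for mitophagy, was at 21.5 ± 0.995 and 19.0 ± 0.485 FPKM (adjusted p = 0.194 and 0.255, limma). Of 25 tested caspases, death receptors and inhibitors 1 was higher and 2 were lower (12.0%, against the same 14.6%), with a median of -0.06. The lowest p values were those of *Birc5*, which encodes survivin, a protein of mitosis and an inhibitor of apoptosis, at 5.07 ± 0.223 and 6.91 ± 0.896 FPKM, and of the TNF receptor gene *Tnfrsf1a* at 18.2 ± 0.888 and 15.7 ± 0.655 FPKM (adjusted p = 0.137 and 0.224).

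**Figure D4:**
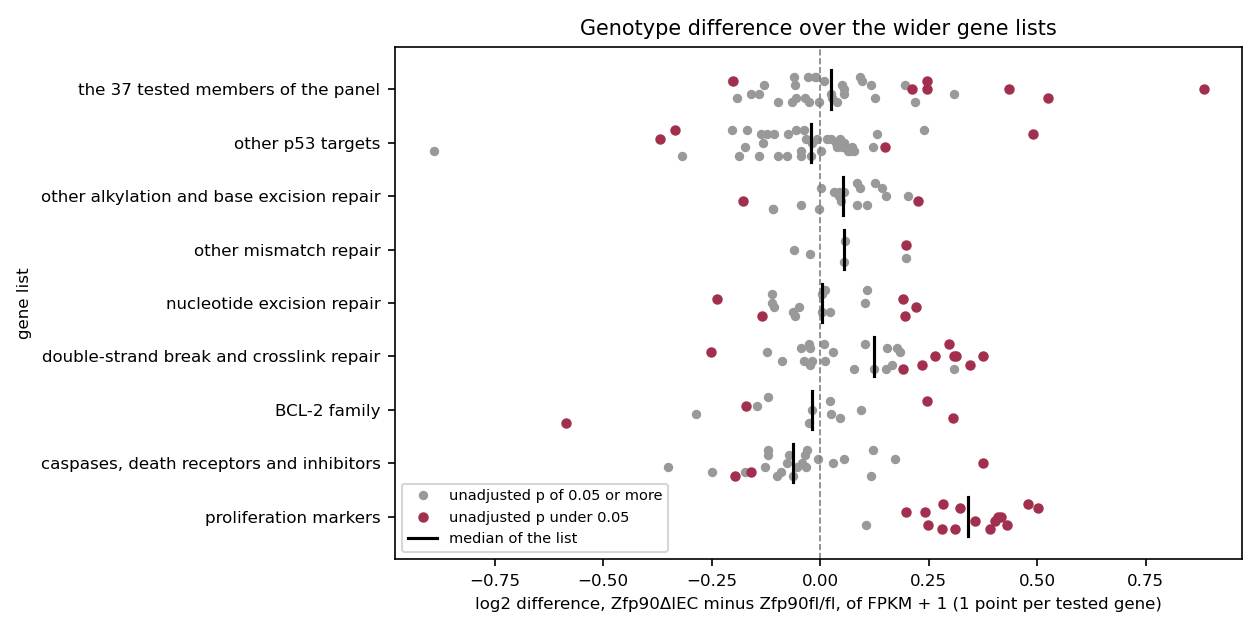
Log2 difference of FPKM + 1, *Zfp90*ΔIEC minus *Zfp90*fl/fl, for each tested gene of the panel and of 8 wider lists, with the median of each list as a black line and genes with an unadjusted p under 0.05 in red. The medians lie between -0.06 and 0.12 in the panel and in the 7 p53, repair and apoptosis lists, and at 0.34 in the proliferation markers.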

How the data were processed

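Strand-specific poly(A) libraries of EDTA-isolated colon epithelium were sequenced by the authors. Their methods name TopHat and Cuffdiff with a human genome, whereas the submitters' processing notes name FastQC, STAR 2.5, Cuffnorm, DESeq 1.22.1 and mm9. The deposited files hold an FPKM per mouse Ensembl gene, a unit taken from the methods and the values, since no header names it. Symbols and gene coordinates came from GENCODE on GRCm38 (52403 of 52550 genes, 147 without a symbol), and promoter windows from RefSeq (GRCm38.p6). Genotypes followed the sample titles, because the genotype field of 2 *Zfp90*ΔIEC samples names another gene.

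From the deposited FPKM, log2(FPKM + 1) was tested with limma 3.58.1 (R 4.3.3, empirical Bayes with an intensity trend) over 11564 genes that reached 1 FPKM in 3 or more samples, with Benjamini-Hochberg adjustment and a threshold of 0.05. Fold changes on this scale understate the change of low genes. The 4 members and the other genes below the filter took their values from the same fit without it, over 27805 genes above 0 in any sample. Depth is not given by the files. It was estimated from the steps of low values in genes with a single transcript, of which 56.8% to 61.5% lay within 10% of a whole step, so it is rough. In simulated data 200 of the 11564 genes were changed, drawn only from those with a mean log2(FPKM + 1) over 2. The test recovered 57% of log2 changes of 0.5 (5 false calls), 93% of changes of 1 (9) and 99% of changes of 2 (9). These rates do not cover tested members of lower level, such as *Chek1*. They hold for 200 genes changed by an equal size, where many calls loosen the adjusted threshold. The measured data gave 23 calls, so recovery there can be lower.

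The members, gene lists and alternatives were chosen with earlier results of these data known. By rule, values in every sample were given for *Trp53*, *Cdkn1a*, *Mdm2*, *Bax* and *Mgmt*, for members with an unadjusted p under 0.05 or without overlap, and for the most abundant member of each subgroup, with the other members by mean or range. Of the wider lists, genes past the threshold or the 2 of lowest p were named, except for 1 gene that is not reported here. Lists were described by counts and medians beside those of all genes, with no set test. Alternatives left out each sample (with the filter kept), added the replicate number as a block, scaled by median ratios or by quantiles, dropped the filter, or used a pseudocount of 0.1. Figures were drawn with matplotlib 3.10.9 in Python 3.11.15.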

Additional observations from a re-analysis of the deposited data

How the results depend on the processing

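No member passed the adjusted threshold under any of the 11 alternatives. The sign of the difference reversed under at least 1 alternative in 15 of the 41 members, and *Cdkn2a* stood at 0 without *Zfp90*fl/fl replicate 2. Members with an unadjusted p under 0.05 numbered 7, 6 under median ratio scaling and without the filter, and 4 to 8 when single samples were left out. Members without overlap numbered 6, 5 under each of the other scalings, and 6 to 14 when single samples were left out. Genes past the threshold numbered 23 of all tested, 13 with a pseudocount of 0.1, 15 without the filter, 47 with the replicate block and 10 to 21 without single samples (10 without *Zfp90*fl/fl replicate 2). The wider lists held 1 gene past it, 0 after quantile normalization, in the fit without the filter, with the replicate block and with a pseudocount of 0.1, and 0 to 1 without single samples. The causes were not tested.

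Under quantile normalization and median ratio scaling the log2 difference changed sign in *Ei24* (0.0200 and 0.0106), *Rrm2b* (0.0224 and 0.00951) and *Polk* (0.00704 and 0.00481). In the main fit these stood at -0.0110, -0.00279 and -0.0101. The median over all genes was -0.0227 in the main fit, -0.00768 under quantile normalization and -0.00318 under median ratio scaling. Without single samples the difference crossed 0 in *Trp53* (-0.0699 to 0.0846), *Mdm4* (-0.147 to 0.0224), *Btg2* (-0.0715 to 0.0454), *Trp53inp1* (-0.0894 to 0.255), *Aen* (-0.114 to 0.0440), *Ei24* (-0.0282 to 0.0107), *Zmat3* (-0.109 to 0.0172), *Sesn2* (-0.0280 to 0.0685), *Tigar* (-0.0320 to 0.121), *Rrm2b* (-0.0291 to 0.0207), *Polk* (-0.125 to 0.0768), *Atm* (-0.0747 to 0.102), *Bcl2l1* (-0.349 to 0.212), *Mcl1* (-0.00105 to 0.0850) and *Bid* (-0.152 to 0.251).

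The labels number the samples 1 to 3 in both genotypes. Deviations from the genotype means correlated at 0.194, 0.110 and 0.0782 between samples of the same number. Each *Zfp90*fl/fl sample correlated best with the *Zfp90*ΔIEC sample of its number, and the reverse was not checked. Deviations within a genotype sum to 0, so correlations this small do not settle whether samples were paired. The design names no pairs, and the samples were not treated as paired. With the replicate block 10 members had an unadjusted p under 0.05 (27.0%, against 16.2% of all genes) and 0 passed the adjusted threshold. In the simulation, where 200 genes were changed by an equal size, 57% of genes with a log2 change of 0.5 were called. The measured data gave 23 calls, so this rate can overstate the recovery there. Smaller changes, such as the 0.25 of *Mdm2*, and changes in genes of low level, such as *Chek1*, were not simulated.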

Other observations

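The BCL-2 family list held 3 near-identical copies of the antiapoptotic gene *Bcl2a1* that lay below the filter, named here after their values were seen. *Bcl2a1b* was measured at 0.944, 0.797 and 1.26 FPKM in *Zfp90*fl/fl samples and at 0.0448, 0.256 and 0.305 FPKM in *Zfp90*ΔIEC samples, with a log2 difference of -0.73 (SE 0.124, adjusted p = 0.169 by limma without the filter). *Bcl2a1d* was at 0.471 ± 0.0753 and 0.118 ± 0.0680 FPKM (SD, n = 3) and *Bcl2a1a* at 0.321 ± 0.174 and 0.0186 ± 0.0323 FPKM, and in all 3 copies each *Zfp90*ΔIEC value lay below each *Zfp90*fl/fl value. Reads can be split between such copies, so the level of each is uncertain and the 3 are not separate observations. Of the 19 genes of the list, 5 were lower and 2 higher without overlap. Of all 52550 genes listed, 2469 were lower without overlap and 24745 were at 0 in all 6 samples. The pan-leukocyte gene *Ptprc* stood at 0.721 ± 0.156 and 0.371 ± 0.0875 FPKM in the same samples. The part of leukocytes in the values of the 3 copies was not tested.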
